A study of Homo sapiens with 4 samples.

Results

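Fibronectin and 9 matricellular or matrix-linking glycoproteins were followed in HGC-27 cells, an established gastric carcinoma line, after knockdown of USP47, a deubiquitinating enzyme. The genes were FN1, TNC, THBS1, THBS2, SPARC, POSTN, TGFBI, NID1, NID2 and SPOCK1, chosen by name and matched by symbol to the gene identifiers of the count files, which gave 10 of 63568 identifiers. All 4 RNA-Seq libraries came from cells infected with lentivirus, 2 with a scrambled control shRNA and 2 with an shRNA against USP47, so the controls also carry a vector and an shRNA. Infected cells were kept under puromycin to obtain stable lines, and the study made 2 shRNAs against USP47, but which of them each knockdown library carries, and the time after infection, are not given in the sources used here. The series' design text also mentions vehicle-treated controls, which the labels of these 4 libraries do not. The study asked through this comparison which pathways USP47 affects, with epithelial-to-mesenchymal transition (EMT) as the one it pursued, and fibronectin is a common EMT marker.

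Matricellular proteins are secreted into the extracellular matrix, where they mainly adjust how cells bind to it and respond to growth factors rather than carry load. Fibronectin is instead a structural glycoprotein that cells assemble into fibrils through integrins. Nidogens link laminin to type IV collagen in basement membranes. Many of these genes are known as products of fibroblasts and of carcinoma cells in a mesenchymal state.

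Total counts on genes lay between 15649899 and 20140273 per library. USP47 itself was at 80.0 and 66.1 CPM (counts scaled to library size after TMM normalization) with control shRNA and at 36.0 and 21.5 CPM with USP47 shRNA, so the knockdown libraries held 49.3% and 29.5% of the mean control level (log2 fold change -1.34, adjusted p = 0.00362). DKK3, which overlaps USP47 on the other strand, had at most 56 counts. Of 10 gastric epithelial markers, the keratins KRT18 and KRT19 had at most 1 count in any library, EPCAM had 3 to 12, KRT8 10 to 19 and CDH1 8 to 28, and MUC1 was the most abundant at 244 to 470 counts, while the fibroblast-associated collagen gene COL3A1 was at 1702 ± 11.8 CPM (SD, n = 2) in control cells. Endothelial CDH5 had at most 2 counts, and leukocyte PTPRC between 8 and 12. Summed over their whole lists, endothelial markers were at 3.24 and 3.11 CPM and leukocyte markers at 4.13 and 4.23 CPM in control cells. With 2 libraries per group an exact two-sided permutation test of a single gene cannot give a p below 0.333, so all tests below come from edgeR's quasi-likelihood fit over 21932 genes, in which the spread of a gene is estimated largely from genes of similar abundance.

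Levels of different genes were compared within a library by TPM, a relative abundance that divides by gene length. POSTN was the highest of the 10 genes in every library, with 91.9 and 67.0 TPM in control cells and 135 and 58.5 TPM in knockdown cells, and alone made up between 60.8% and 77.4% of their summed TPM. SPARC came second in every library, at 30.7 and 28.5 TPM in control cells and 29.5 and 25.5 TPM in knockdown cells. FN1 came next in both control libraries, at 6.15 and 5.47 TPM, followed by THBS1 at 4.59 and 4.26 TPM. In both knockdown libraries this order was exchanged, with THBS1 at 2.98 and 2.29 TPM and FN1 at 2.19 and 2.00 TPM. The order of this pair depends on the gene length used. FN1 has 8390 exonic bases in its canonical transcript and 17216 over all transcripts, and THBS1 has 7789 and 9158. In CPM, which ignores length, FN1 stayed above THBS1 in both knockdown libraries, at 26.2 and 32.0 against 22.3 and 22.9. TNC, at 2.72 and 2.20 TPM in control cells, and NID1, at 2.21 and 1.66 TPM, followed with overlapping ranges. NID2, at 0.739 and 0.595 TPM, and SPOCK1, at 0.779 and 0.508 TPM, could not be ordered. THBS2 and TGFBI were at the bottom, below 0.1 TPM in every library. The genes thus fall into a pair of abundant transcripts, 4 of intermediate level, and 4 that are rare in these cells.

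**Figure D1:**
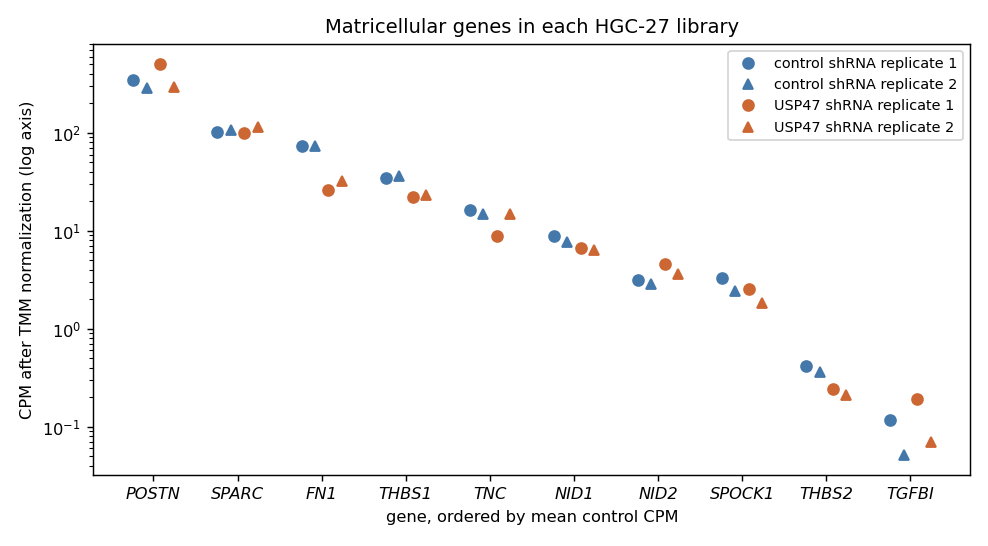
CPM after TMM normalization (log axis) of the 10 genes in each of the 4 libraries, ordered by mean control CPM, with circles for replicate 1 and triangles for replicate 2. FN1 and THBS1 lie lower in both USP47 shRNA libraries than in both controls, POSTN is high in USP47 shRNA replicate 1 only, and SPARC lies between 98.4 and 114 CPM throughout.

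Of the 10 genes, 8 passed the filter on low counts and were tested. FN1 and THBS1 were called lower (adjusted p under 0.05), and no member was called higher. Over all genes tested, 9.56% were called lower and 6.52% higher in the knockdown. Both knockdown libraries lay below both controls for 4 of the 8 tested genes (FN1, THBS1, TNC and NID1), an order seen in 31.7% of all genes tested, and above both controls for NID2, an order seen in 29.3%. The median log2 fold change was -0.35 over the 8 genes and -0.0083 over all genes tested, with 5 of the 8 values below 0. Leaving out 1 library gave medians between -0.46 and -0.18. These counts rest on few genes, and in bulk RNA a smaller share of cells that express a gene cannot be told apart from less RNA per cell.

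FN1 (ENSG00000115414) lies on the reverse strand of chromosome 2 in GRCh37 (216225163 to 216300796), with 46 exons and 8390 exonic bases in its canonical transcript, and no other annotated gene overlaps it. It was counted 1240 and 1448 times in control cells and 545 and 459 times in knockdown cells. This came to 73.1 and 73.8 CPM against 26.2 and 32.0 CPM, so the control libraries differed little and the groups were far apart. Mean levels were 73.5 ± 0.495 CPM in control and 29.1 ± 4.08 CPM in knockdown cells (SD, n = 2 each), which leaves 39.6% of the control level. The log2 fold change was -1.34 (standard error 0.14, 95% interval -1.65 to -1.03, edgeR adjusted p = 0.000602), a 2.53-fold fall. Without any 1 library it stayed between -1.48 and -1.19 and was called in each of these fits. FN1 is one of the EMT genes that the study itself picked for follow-up by RT-qPCR, so its fall in these libraries is not independent of that choice. The study reported that this RT-qPCR bore out its RNA-Seq result. Among 15368 other tested genes that averaged 1 log2 CPM or more, those nearest to FN1 by centred log2(CPM + 0.5) over the 4 libraries were ENSG00000261305, SLC16A9 and CD207, at Euclidean distances of 0.048, 0.053 and 0.059. The added 0.5 CPM shrinks the differences of low genes, and without it, a setting chosen after seeing the data, SLC16A9 was nearest at 0.045, followed by SAMD14 at 0.052 and GPR27 at 0.061. ENSG00000261305 then lay at 0.47 and CD207 at 0.24, so only SLC16A9 was among the nearest 3 both ways.

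**Figure D2:**
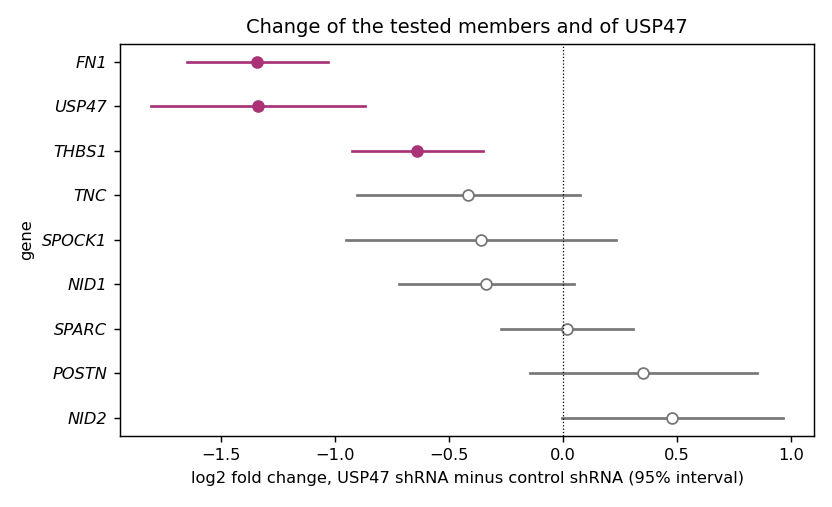
Log2 fold change (USP47 shRNA minus control shRNA) with its 95% interval for the 8 tested members and for USP47, from edgeR's quasi-likelihood fit, with filled points for adjusted p under 0.05. The intervals of FN1 (-1.65 to -1.03) and THBS1 (-0.93 to -0.35) lie below 0, and those of the other 6 members include it.

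The promoter window of FN1 is shown with those of THBS1, the other member that fell, and of POSTN, the most abundant one. The windows run from 250 bases before to 50 bases after the start and were taken from RefSeq on GRCh38.p14, a different build from the gene positions given here. RefSeq windows were matched for 9 of the 10 genes, all but SPOCK1. Each window was searched on both strands for CAGGTG (the E-box bound by Snail factors) and TGANTCA (the AP-1 site). It was also searched for TGACGTCA (the cyclic AMP response element, CRE) and TATAAA (a common form of the TATA box). Matches are in capitals.
FN1 (chr2:215436019-215436318, reverse strand): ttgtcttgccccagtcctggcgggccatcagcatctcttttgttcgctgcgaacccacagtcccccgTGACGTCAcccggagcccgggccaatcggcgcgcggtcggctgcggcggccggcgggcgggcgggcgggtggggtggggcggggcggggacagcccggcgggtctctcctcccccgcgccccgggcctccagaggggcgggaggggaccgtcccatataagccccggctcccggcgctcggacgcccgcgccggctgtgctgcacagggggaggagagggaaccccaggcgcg
THBS1 (chr15:39580829-39581128, forward strand): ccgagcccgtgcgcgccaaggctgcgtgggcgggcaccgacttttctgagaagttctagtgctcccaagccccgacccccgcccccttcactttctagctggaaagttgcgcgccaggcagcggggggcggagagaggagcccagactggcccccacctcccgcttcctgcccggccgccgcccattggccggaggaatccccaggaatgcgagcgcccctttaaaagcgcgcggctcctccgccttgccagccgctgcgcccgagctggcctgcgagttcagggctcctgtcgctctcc
POSTN (chr13:37598719-37599018, reverse strand): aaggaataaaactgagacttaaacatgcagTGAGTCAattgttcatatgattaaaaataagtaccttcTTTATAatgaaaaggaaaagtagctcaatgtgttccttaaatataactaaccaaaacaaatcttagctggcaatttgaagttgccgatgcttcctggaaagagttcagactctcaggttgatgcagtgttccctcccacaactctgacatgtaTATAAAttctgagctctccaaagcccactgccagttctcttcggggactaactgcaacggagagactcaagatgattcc

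The FN1 window holds a CRE that begins 183 bases before the start, a word found in 1.85% of 35116 windows of this length. In the POSTN window an AP-1 site begins 220 bases before the start (7.71% of windows hold one) and TATA words begin 182 and 29 bases before it (11.5% of windows). THBS2 also has a TATA word beginning 29 bases before its start. Only the exact word TATAAA was counted, and the FN1 and TNC windows hold the variant ATATAAG. A window without a match is therefore not shown to lack a TATA box. The E-box, present in 20.6% of all windows, was not found in any of the 9, and none of the 4 words was found in those of THBS1, TNC, SPARC, TGFBI, NID1 and NID2. The base composition differed widely, with 76.7% G and C in the FN1 window, 70.0% in that of THBS1 and 39.0% in that of POSTN. So FN1 and THBS1, which both fell, share none of the words searched, and the matches are letters in a window and not evidence of binding.

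Thrombospondins are secreted glycoproteins, of which THBS1 and THBS2 form trimers that restrain angiogenesis through the receptors CD36 and CD47, and THBS1 can also activate latent TGF-beta. THBS1 (chromosome 15 of GRCh37, 39873280 to 39891667, forward strand) was counted 581 and 708 times in control cells and 464 and 329 times in knockdown cells. In CPM this was 34.3 and 36.1 against 22.3 and 22.9, and the groups did not overlap. Means were 35.2 ± 1.30 CPM in control and 22.6 ± 0.433 CPM in knockdown cells (SD, n = 2 each), and the log2 fold change was -0.64 with a standard error of 0.13 (adjusted p = 0.0107). Without control shRNA replicate 1 the log2 fold change was -0.67, and without control shRNA replicate 2 it was -0.60, both close to the full value. The call was lost in both of these fits, in which the spread within groups comes from the knockdown libraries alone. FSIP1 and an antisense RNA overlap THBS1 on the other strand, and FSIP1 was at no more than 26 counts in any library. THBS2 (chromosome 6, 169615875 to 169654145) had 7 and 7 counts in control cells and 5 and 3 in knockdown cells, too few for a test.

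The rest of the thrombospondin family, taken from a list of 19 other matricellular genes, gave values on the same side. THBS3 went from 47.7 and 48.7 CPM to 25.7 and 27.7 CPM (log2 fold change -0.85 with a standard error of 0.13, adjusted p = 0.00288). Antisense THBS3-AS1, at 60 to 105 counts, and MTX1, at 620 to 898 counts, overlap its exons on the opposite strand, and without a strand setting their reads and those of THBS3 cannot be told apart. THBS4 went from 2.77 and 3.31 CPM to 1.11 and 1.18 CPM (log2 fold change -1.42 with a standard error of 0.26, adjusted p = 0.00739). For COMP, the cartilage oligomeric matrix protein of this family, the values were 7.96 and 10.0 CPM against 3.75 and 6.55 CPM, with a log2 fold change of -0.84 (adjusted p = 0.0451) that was not called with the DESeq2 Wald test, with no filter on low counts, without control shRNA replicate 2 or without USP47 shRNA replicate 1. All 4 thrombospondins that could be tested were thus called lower, beside 9.56% of all genes tested. This grouping by family was made after their values were seen and was not tested. The calls of COMP and THBS1 did not hold in every alternative, as given above.

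TNC encodes tenascin-C, a hexameric protein that loosens the attachment of cells to fibronectin. The control libraries gave 275 and 292 counts and the knockdown libraries 182 and 213, on chromosome 9 of GRCh37 (117781854 to 117880486). The CPM values were 16.2 and 14.9 against 8.75 and 14.8, so USP47 shRNA replicate 1 was low and replicate 2 sat just under the controls. The log2 fold change of -0.42 had a 95% interval of -0.90 to 0.073 (adjusted p = 0.221). It was -0.82 without USP47 shRNA replicate 2 and -0.057 without replicate 1. For TNC, therefore, a single knockdown library sets the value. With the replicate number as a block the log2 fold change was -0.44 and was called lower (adjusted p = 0.00854). With 4 libraries that fit leaves little to estimate the spread from. Only the replicate 1 pair differed clearly, 16.2 against 8.75 CPM, while the replicate 2 pair was at 14.9 and 14.8 CPM, so the call does not show a repeated fall. Its relative TNXB, a tenascin of connective tissue, rose from 3.77 and 3.67 CPM to 10.5 and 12.7 CPM (log2 fold change 1.63, standard error 0.18, adjusted p = 0.000766), with both knockdown libraries far above both controls. TNXB is uncertain as a count, because a near-identical pseudogene copy of part of it lies nearby and because ATF6B on the same strand touches its exons.

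POSTN encodes periostin and TGFBI the related TGF-beta-induced protein, both adhesion proteins with fasciclin domains that bind integrins. POSTN (chromosome 13 of GRCh37, 38136720 to 38172981, reverse strand) had 5847 and 5600 counts in control cells and 10602 and 4229 in knockdown cells. Its CPM values were 345 and 285 in control cells and 510 and 295 in knockdown cells, so only USP47 shRNA replicate 1 lay above both controls. The means, 315 ± 41.9 and 402 ± 152 CPM (SD, n = 2 per group), gave a log2 fold change of 0.35 with a 95% interval of -0.15 to 0.85 (adjusted p = 0.306). Without USP47 shRNA replicate 1 it was -0.088, and without replicate 2 it was 0.70, so the value for POSTN rests on replicate 1. With the replicate number as a block the log2 fold change was 0.31 and was called higher (adjusted p = 0.0285). That fit leaves little to estimate the spread from, and its pairs were unlike, 345 against 510 CPM in replicate 1 and 285 against 295 CPM in replicate 2. TGFBI (chromosome 5, 135364677 to 135399507) had 2 and 1 counts in control cells and 4 and 1 in knockdown cells. These were too few for a test, and no fold is given.

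SPARC encodes osteonectin, a collagen-binding protein of the matrix, and SPOCK1 encodes testican-1, a proteoglycan that shares domains with it. SPARC (chromosome 5 of GRCh37, 151040657 to 151066536, reverse strand) was steady, at 102 and 107 CPM in control cells and 98.4 and 114 CPM in knockdown cells, with overlapping groups. Its log2 fold change was 0.019 with a 95% interval of -0.27 to 0.31 (adjusted p = 0.940), and the interval lies above that of FN1. SPOCK1 (chromosome 5, 136310987 to 136934068) had 56 and 48 counts against 53 and 26, which is 3.30 and 2.45 CPM against 2.55 and 1.81 CPM. Its groups overlapped, and the log2 fold change of -0.36 had a 95% interval of -0.95 to 0.23 (adjusted p = 0.379), so a fall or no change of SPOCK1 was not resolved at this depth. Among its relatives, SPOCK3 fell from 7.66 and 6.88 to 2.36 and 3.76 CPM (log2 fold change -1.28, standard error 0.23, adjusted p = 0.0066), and SPOCK2, at 5.19 and 3.87 CPM in control cells and 4.71 and 5.57 CPM in knockdown cells, was not called (adjusted p = 0.596).

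The nidogens went in opposite directions as values, and neither was called. NID1 (chromosome 1 of GRCh37, 236139130 to 236228409, reverse strand) had 151 and 149 counts in control cells and 139 and 91 in knockdown cells, or 8.90 and 7.59 CPM against 6.68 and 6.34 CPM. The groups did not overlap, and the log2 fold change was -0.34 (95% interval -0.72 to 0.049, adjusted p = 0.210). NID2 (chromosome 14, 52471527 to 52535777, reverse strand) had 53 and 56 counts against 96 and 52, or 3.12 and 2.85 CPM against 4.62 and 3.62 CPM. Its log2 fold change was 0.48 (95% interval -0.0046 to 0.96, adjusted p = 0.159). It was 0.63 without USP47 shRNA replicate 2 and 0.29 without replicate 1. RTRAF, on the opposite strand, overlaps exons of NID2 and is much more abundant, at 82.6 and 72.7 CPM in control cells and 102 and 101 CPM in knockdown cells (log2 fold change 0.39, adjusted p = 0.0632). Whether reads of RTRAF enter the counts of NID2 was not tested.

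Ratios of TPM within a library do not depend on how libraries are scaled, and 6 of them, chosen after the values were seen and given without a test, describe the balance among members. FN1 was at 0.201 and 0.192 of the SPARC level in control cells and at 0.0743 and 0.0786 in knockdown cells. THBS1 was at 0.150 and 0.149 of it in control cells and at 0.101 and 0.0897 in knockdown cells. Both ratios were close within groups and apart between them. TNC relative to SPARC went from 0.0887 and 0.0771 to 0.0494 and 0.0727. POSTN relative to SPARC was 3.00 and 2.35 in control cells and 4.58 and 2.29 in knockdown cells, and here the groups overlapped. NID1 exceeded NID2 by 2.99 and 2.79 times in control cells and by 1.52 and 1.84 times in knockdown cells. POSTN exceeded FN1 by 14.9 and 12.3 times in control cells, and by 61.6 and 29.2 times in knockdown cells.

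**Figure D3:**
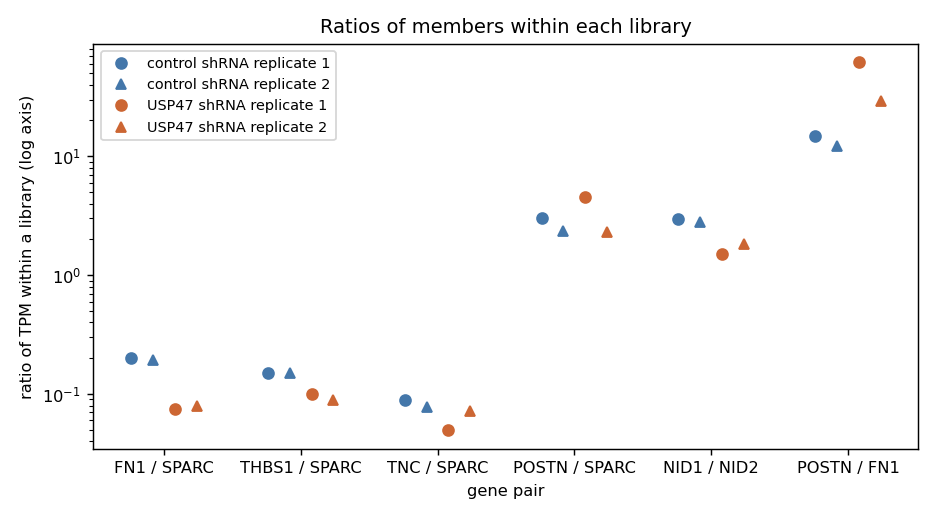
Ratio of the TPM of gene pairs within each library (log axis), with circles for replicate 1 and triangles for replicate 2. FN1 / SPARC and THBS1 / SPARC are lower in both USP47 shRNA libraries than in both controls, NID1 / NID2 narrows from 2.79 or more to 1.84 or less, and POSTN / SPARC overlaps between groups.

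The knockdown library farther from the control mean was replicate 1, which retained more USP47, for FN1, THBS1, TNC, POSTN and NID2, and replicate 2 for NID1, SPOCK1 and SPARC. FN1 was at 35.7% of the control mean in replicate 1 and at 43.5% in replicate 2, TNC at 56.3% and 95.4%, POSTN at 162% and 93.5%, and NID2 at 154% and 121%. THBS1 was alike in both, at 63.4% and 65.2%. NID1 was at 81.0% and 76.9%, SPOCK1 at 88.7% and 63.0%, and SPARC at 94.1% and 108.6%. What sets the 2 knockdown libraries apart was not tested.

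The marker lists were set, without a test, beside the shares over all genes tested, 9.56% called lower and 6.52% higher. Of 8 tested genes of a list of 9 fibroblast markers, 5 were called lower and 0 higher. Not every call held with 1 control library left out. Without USP47 shRNA replicate 1, 2 were called higher. The fallen genes were THY1 (log2 fold change -2.14), which the study also picked for RT-qPCR, COL1A2 (-1.23), COL1A1 (-0.75), FAP (-0.74) and PDGFRA (-0.63). COL1A2 lost its call with the DESeq2 Wald test, and COL1A1 with either control library left out. PDGFRA lost its call without control shRNA replicate 1, and FAP without control shRNA replicate 2. THY1 kept its call in all of these fits. COL3A1 (0.30), DCN (0.24) and LUM (-0.17) were not called, and COL6A3 had at most 6 counts. The summed level of the list was 3010 and 3069 CPM in control cells and 2542 and 3471 CPM in knockdown cells, so it overlapped between groups. Its part in the fall of FN1 was not tested. Of the mesenchymal state markers, SNAI2 rose by 0.50 on the log2 scale (adjusted p = 0.0448), a call lost with library size alone, with no filter, with the DESeq2 Wald test and with either control library left out, and VIM, SNAI1, TWIST1, ZEB1 and ZEB2 were not called. CDH2, also on that list, did not pass the filter on low counts and was not tested. All 3 tested smooth muscle markers were below 0, with ACTA2 called lower (-0.96, adjusted p = 0.0204) except with the DESeq2 Wald test or with 1 control library left out. Of the other marker lists, 1 of 4 tested gastric epithelial genes (EPCAM), 1 of 2 tested endothelial genes (CLDN5, at most 29 counts) and 0 of 3 tested leukocyte genes were called lower, and none was called higher. The calls of EPCAM and CLDN5 were both lost with 1 control library left out, with library size alone and with the DESeq2 Wald test.

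The genes around these glycoproteins, from lists of their relatives, receptors and partners, went both ways. Over all genes tested, 9.56% were called lower and 6.52% higher. The lists here and in the next paragraphs are short, and their counts were not tested against those shares. Of 13 tested other matricellular genes, 5 were called lower (THBS3, THBS4, COMP, SPOCK3 and CCN3) and 1 higher (TNXB), with a median log2 fold change of -0.15. CCN3, a growth-regulating member of the CCN family, fell from 13.4 and 12.1 to 5.77 and 6.48 CPM (log2 fold change -1.06, adjusted p = 0.0034). CCN1, CCN2 and CCN5 were not called, and neither was FSTL1, the most abundant gene of the list at 162 ± 3.58 CPM in control cells (SD, n = 2).

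Of 16 tested receptor genes, 2 were called lower and 2 higher, beside 9.56% lower and 6.52% higher over all genes tested. The syndecan SDC1 fell (log2 fold change -0.80, adjusted p = 0.00532), as did the integrin subunit ITGB8 (-0.77, adjusted p = 0.0299). ITGA4, which with ITGB1 binds an alternatively spliced part of fibronectin, rose from 84.5 ± 4.66 CPM in control to 133 ± 3.91 CPM in knockdown cells (SD, n = 2 each, log2 fold change 0.65, adjusted p = 0.0085), and the fibronectin co-receptor SDC4 rose by 0.74 (adjusted p = 0.0134). ITGA5 and ITGB1, the subunits of the classical fibronectin receptor, had log2 fold changes of 0.42 (adjusted p = 0.101) and -0.094 (adjusted p = 0.688). With 1 control library left out, whichever it was, ITGA4 and SDC4 were no longer called. SDC1 lost its call without control shRNA replicate 2, and ITGB8 without control shRNA replicate 1, with library size alone and with the DESeq2 Wald test. Without USP47 shRNA replicate 1 the receptor calls were 4 lower and 5 higher, and without USP47 shRNA replicate 2 they were 5 lower and 2 higher.

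Among 9 tested partners of nidogens in basement membranes, LAMA1 (log2 fold change -2.36, adjusted p = 0.000418) and the perlecan gene HSPG2 (-0.80, adjusted p = 0.00448) fell and LAMB2 rose (0.79, adjusted p = 0.00351). The laminin gamma chain LAMC1, to which nidogens bind, was at 324 ± 9.35 and 318 ± 8.36 CPM (SD, n = 2 per group). The collagen chains COL4A1 and COL4A2 had at most 9 counts. Without control shRNA replicate 1 the call of LAMB2 was lost, and without USP47 shRNA replicate 1 4 partners were called higher.

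Of 12 tested genes for crosslinking and processing of matrix, LOXL3, a lysyl oxidase, fell (log2 fold change -1.24, adjusted p = 0.0018). PLOD1 (0.63), P4HA2 (0.71), BMP1 (0.57) and PCOLCE (0.58) rose, and none of these 4 rises was called with 1 control library left out, whichever it was, while without USP47 shRNA replicate 2 4 genes were called lower. Of 12 tested TGF-beta response genes, SMAD7 (0.79) and TAGLN (0.83) were called higher and TGFB1I1 (-0.70) lower. SMAD7 lost its call with library size alone and without control shRNA replicate 1, and TAGLN and TGFB1I1 lost theirs with either control library left out.

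**Figure D4:**
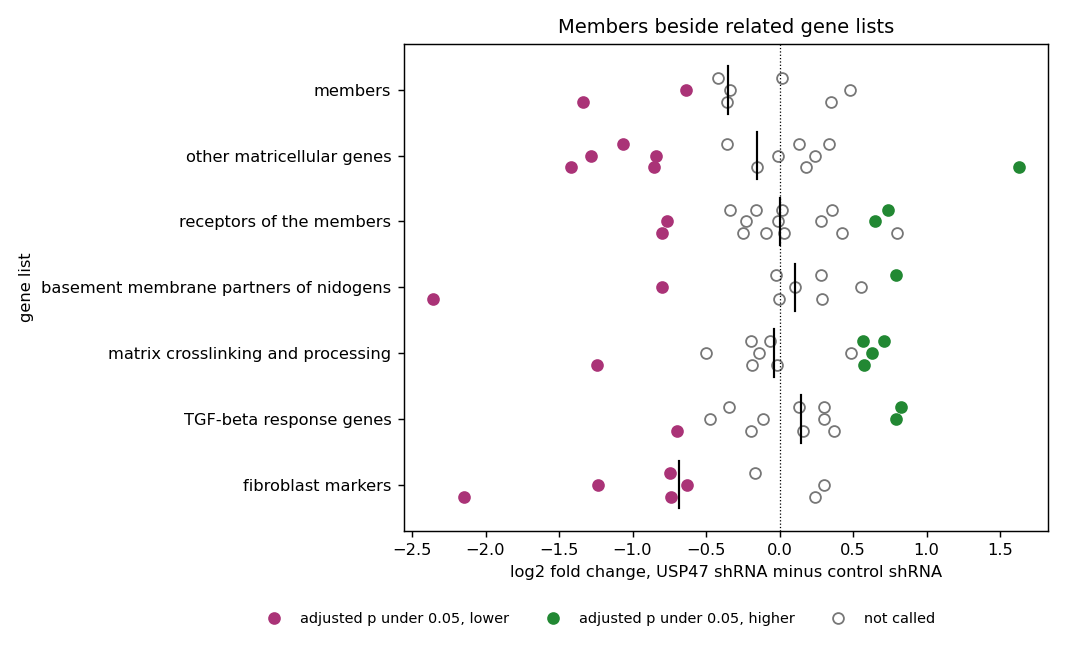
Log2 fold change (USP47 shRNA minus control shRNA) of each tested gene in 7 lists, filled where adjusted p is under 0.05, with a vertical bar at the median of the list. The 8 members range from -1.34 to 0.48 with a median of -0.35, the other matricellular genes range from -1.42 to 1.63, and the fibroblast markers have the lowest median of these 7 lists, -0.68. The lists plotted are the members, other matricellular genes, receptors, basement membrane partners, crosslinking and processing genes, TGF-beta response genes and fibroblast markers, and the smooth muscle (-0.96) and endothelial (-0.84) markers, with 3 and 2 tested genes, are not plotted.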

How the data were processed

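RNA-Seq was analysed in 4 HGC-27 libraries, grouped by the submitters' labels. The design text speaks of biological duplicates and the methods of triplicates, and 2 libraries per group were analysed here. The authors trimmed bases of low quality, mapped reads to hg19 with STAR 2.7.5c and removed duplicates with SAMtools 1.9, which can compress the changes of abundant genes. The submitters' processing notes also name featureCounts, and the annotation and strand setting are not given in the sources used here. A stranded kit is named in the labels and a different kit in the methods. Counts per gene were deposited without normalization and were tested. TPM values, which the authors derived per gene length, served only for levels within a library, and the FPKM values of the authors were not used.

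Symbols matched 55665 of 63568 identifiers, and positions came from GRCh37 with GENCODE 44. Tests used edgeR 4.0.16 in R 4.3.3 (filterByExpr, TMM, robust quasi-likelihood fit, both directions, Benjamini-Hochberg adjusted p under 0.05), with standard errors as the log2 fold change over the square root of F and 95% intervals from the same fit. The study's DESeq2 served as an alternative (1.42.0, Wald test). In fits without 1 library the lone library is assumed to vary like the others, and the spread within groups comes from the remaining pair. The pairs were unlike. Their mean squared difference per gene, relative to counting noise alone, was 3.51 for the controls and 11.1 for the knockdown libraries. A call gained or lost in such a fit therefore also reflects which pair remains. Copies of 7SL RNA took 7.11% to 9.72% of counts. On simulated counts for 21932 genes in this comparison, with 200 changed, the test called 90.7% of the genes with a log2 change of 1 and 100% of the genes with a log2 change of 2, and 2.04% of calls were wrong. The simulation is listed with a single dispersion (spread beyond counting noise) of 0.0118, and the data gave 3527 calls. Because the knockdown libraries also differed more than the controls, these shares need not hold for the data.

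The members and lists were chosen with earlier results of these data known. All members, USP47, the genes nearest to FN1 and, in every other list, at least the 3 genes of smallest p could be named. MTX1, THBS3-AS1, FSIP1, RTRAF, DKK3 and ATF6B were added as overlapping genes. PECAM1 had no matched identifier, and protein sequences were not analysed here.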

Additional observations from a re-analysis of the deposited data

How the results depend on the processing

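Settings changed 1 at a time were the test, the scaling, the filter, a minimum fold change, removal of 7SL RNA and mitochondrial genes, the replicate number and each library. The legacy quasi-likelihood method was chosen after seeing the data and gave 3485 genes in place of 3527. FN1 kept its direction and call in all 13 alternatives. THBS1 lost its call with either control library left out. It was also lost with a minimum log2 fold change of 1, which left 1 member called lower and 1216 genes. The median of the members was -0.41 with library size alone, which shifted the median of all genes from -0.0083 to -0.072. SPARC, near 0, changed sign with library size alone (-0.055), with no filter (-0.013), without control shRNA replicate 1 (-0.019) and without USP47 shRNA replicate 2 (-0.083), and POSTN without USP47 shRNA replicate 1 (-0.088). Fits without 1 library put SPARC between -0.083 and 0.13 and POSTN between -0.088 and 0.70. Across fits without 1 library, genes called numbered 1230 to 7270, members called lower 1 to 3 and higher 0 to 2, the median of the members lay between -0.46 and -0.18 and the log2 fold change of USP47 between -1.75 and -1.01. The cause of these shifts was not tested.

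With the replicate number as a block 7422 genes were called, including all 3527, and 3 members were lower and 1 higher, with TNC (adjusted p = 0.00854) and POSTN (adjusted p = 0.0285) added. With 4 libraries this fit leaves little to estimate the spread from. Replicate 1 deviations correlated at 0.274 between groups, but no source ties equal numbers to a shared culture or day, and 2 pairs cannot show it, so the libraries were treated as unpaired. Depth limits THBS2 and TGFBI, at 7 counts or fewer in every library.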
